A study of Mus musculus with 12 samples.

Results

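The core of the SCF ubiquitin ligase was followed across 4 groups of mouse RNA sequencing libraries through 4 genes, Cul1, Rbx1, Cand1 and Cand2, chosen by symbol from the 33100 gene rows of the count table. The libraries are labelled as NK cells and form the groups tumor cKO, tumor WT, spleen cKO and spleen WT, with 3 libraries in each. WT stands for control mice, and cKO for mice with a conditional knockout of 1 gene. What drives the deletion, and the strain, age and tumor model, are unknown here. Separate animals are not stated for the 3 libraries of a group, so the tests weigh differences against library spread, which may be technical.

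SCF ligases attach ubiquitin to chosen proteins, which often marks them for the proteasome. The cullin CUL1 is the scaffold. One end holds the RING protein RBX1, which recruits the ubiquitin-carrying enzyme, and the other holds the adaptor SKP1 with an exchangeable F-box protein that picks the substrate. Attachment of the small protein NEDD8 to the cullin activates the ligase, and the COP9 signalosome removes it. CAND1 binds cullins without NEDD8 and lets one F-box module be exchanged for another, and CAND2 is its paralog, best known from muscle. In lymphocytes, SCF ligases degrade regulators of the cell cycle and of antigen and cytokine signalling.

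In tumor, Cand1 and Cand2 were higher in cKO than in WT, 1.43-fold and 3.46-fold, whereas Cul1 and Rbx1 did not pass the test. Skp1a, the mouse gene of the adaptor SKP1, was higher as well, 1.68-fold. In spleen, none of these genes passed. The cKO effect on Cand2 and on Skp1a differed between tumor and spleen, whereas that on Cand1 was not shown to differ. Of 12 fits that each left out 1 library, 9 lost the Skp1a difference and 2 the Cand2 difference. The rises in tumor were lost in 3 such fits for Cand1 and in 1 for Cand2.

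Library totals ranged from 9542329 to 37118494 counts. The 8 NK cell markers examined summed to 42.1 to 67.2 CPM (counts per 1000000 counted reads) in tumor cKO and 130 to 215 CPM in tumor WT, and to between 951 and 1309 CPM across the 6 spleen libraries. Ncr1, which encodes the NK receptor NKp46, was at most 0.769 CPM in tumor cKO and 1.86 CPM in tumor WT, so the tumor libraries largely lacked this defining marker of their label. Among WT libraries, 7 of the 8 markers were lower in tumor than in spleen, where 28.1% of all genes were called lower. The marker Tyrobp went the other way, at 72.0 CPM in tumor WT against 31.4 CPM in spleen WT on average. It thus made up a large part of the tumor WT sum. The 8 B cell markers summed to 2175 CPM or more in every spleen library. The tumor WT library numbered 2 differed from its group, with stromal markers at 1626 CPM against 78.8 and 160 CPM in the other 2.

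The promoters of these genes are shown first. Windows from 250 bases before to 50 bases after the RefSeq start (GRCm38.p6) were found for 3 of the 4 genes and for Skp1a, and Cand2 is named only. They are Cul1 at chr6:47454069-47454368 on the plus strand (1 of 3 RefSeq starts, the one nearest an exon start of the count table), Skp1a at chr11:52231745-52232044 on the plus strand, Rbx1 at chr15:81466066-81466365 on the plus strand and Cand1 at chr10:119240006-119240305 on the minus strand. They are printed because Skp1a and Cand1 were higher together in tumor cKO and Cul1 and Rbx1 were not called. Each window reads 5′ to 3′ along the gene, with motif matches in capitals. The Cul1 window lies inside the Cul1 interval given below, which begins at base 47453398, and so does not hold that first base.
Cul1: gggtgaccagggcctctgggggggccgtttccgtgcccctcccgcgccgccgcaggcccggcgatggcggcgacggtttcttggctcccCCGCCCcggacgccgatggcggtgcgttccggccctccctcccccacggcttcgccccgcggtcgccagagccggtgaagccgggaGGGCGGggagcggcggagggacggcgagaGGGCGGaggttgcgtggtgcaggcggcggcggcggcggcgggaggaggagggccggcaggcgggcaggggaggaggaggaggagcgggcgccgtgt
Skp1a: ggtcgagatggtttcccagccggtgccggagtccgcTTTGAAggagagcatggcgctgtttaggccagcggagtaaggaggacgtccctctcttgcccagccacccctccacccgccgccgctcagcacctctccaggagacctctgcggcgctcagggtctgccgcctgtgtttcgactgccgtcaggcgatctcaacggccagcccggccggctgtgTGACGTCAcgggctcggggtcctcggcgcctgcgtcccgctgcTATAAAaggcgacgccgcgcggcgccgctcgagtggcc
Rbx1: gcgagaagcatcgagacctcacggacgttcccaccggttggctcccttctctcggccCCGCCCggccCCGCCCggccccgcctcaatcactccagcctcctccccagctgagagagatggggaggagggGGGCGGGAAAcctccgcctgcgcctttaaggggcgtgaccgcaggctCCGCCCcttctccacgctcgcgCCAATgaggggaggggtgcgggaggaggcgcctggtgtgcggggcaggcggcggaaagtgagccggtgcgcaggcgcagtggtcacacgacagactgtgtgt
Cand1: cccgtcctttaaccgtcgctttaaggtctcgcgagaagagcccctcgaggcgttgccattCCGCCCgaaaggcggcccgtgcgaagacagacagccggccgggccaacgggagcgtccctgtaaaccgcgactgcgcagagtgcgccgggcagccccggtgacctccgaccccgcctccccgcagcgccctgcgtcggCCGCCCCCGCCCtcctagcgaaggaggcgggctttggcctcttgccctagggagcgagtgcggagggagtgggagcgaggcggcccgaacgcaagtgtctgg

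The 7 motifs searched on both strands were the GC box GGGCGG, the CCAAT box CCAAT, the TATA box TATAAA, the cAMP response element TGACGTCA, the E-box CACGTG, the E2F site TTTCCCGC and the cell cycle element TTTGAA. Cand1 and Cul1 each held 3 GC boxes, and Rbx1 held 4, a motif present in 35.9% of the 27025 promoter windows. Skp1a held no GC box but 1 match to TATAAA (14.2% of windows), which lay 12 bases after the RefSeq start and thus not upstream of it, 1 cAMP response element (1.9%) and 1 TTTGAA (18.1%). Rbx1 also held 1 CCAAT (37.9%) and 1 E2F match (1.1%), which overlapped a GC box. Cand1 and Skp1a shared none of the 7 motifs in these windows. All 4 windows were rich in G and C, at 71.0% in Cand1, 69.0% in Skp1a, 79.7% in Cul1 and 70.7% in Rbx1, against a median of 52.7% over all windows.

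Levels of different genes were compared per length, as the RPKM values deposited by the authors (reads per kilobase and per 1000000 counted reads). Cul1 averaged 26.2 ± 1.14 RPKM in tumor cKO, 21.2 ± 2.21 in tumor WT, 25.0 ± 0.865 in spleen cKO and 24.3 ± 1.15 in spleen WT (SD, n = 3 each). It lay above 84.6% to 86.8% of the 16831 genes tested. Skp1a averaged 47.8 ± 3.74 RPKM in tumor cKO, 25.2 ± 4.37 in tumor WT, 27.6 ± 1.39 in spleen cKO and 24.6 ± 1.88 in spleen WT. The means of adaptor and scaffold differed by less than the SD of Skp1a in tumor WT and in spleen WT, whereas the adaptor stood higher in each library of tumor cKO and, by less, of spleen cKO. Rbx1 averaged 16.0 ± 1.59 RPKM in tumor cKO, 16.9 ± 0.971 in tumor WT, 12.8 ± 1.78 in spleen cKO and 13.5 ± 2.66 in spleen WT. Cand1 averaged 17.2 ± 2.14 RPKM in tumor cKO, 10.6 ± 2.26 in tumor WT, 10.4 ± 1.23 in spleen cKO and 9.74 ± 0.951 in spleen WT. Rbx1 and Cand1 were neighbours in this order, and their values overlapped in every group but tumor WT, where Rbx1 was the higher in each library. Cand2 was the lowest of the 4, at 2.26 ± 0.382 RPKM in tumor cKO, 0.575 ± 0.211 in tumor WT, 0.471 ± 0.194 in spleen cKO and 0.952 ± 0.835 in spleen WT.

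**Figure D1:**
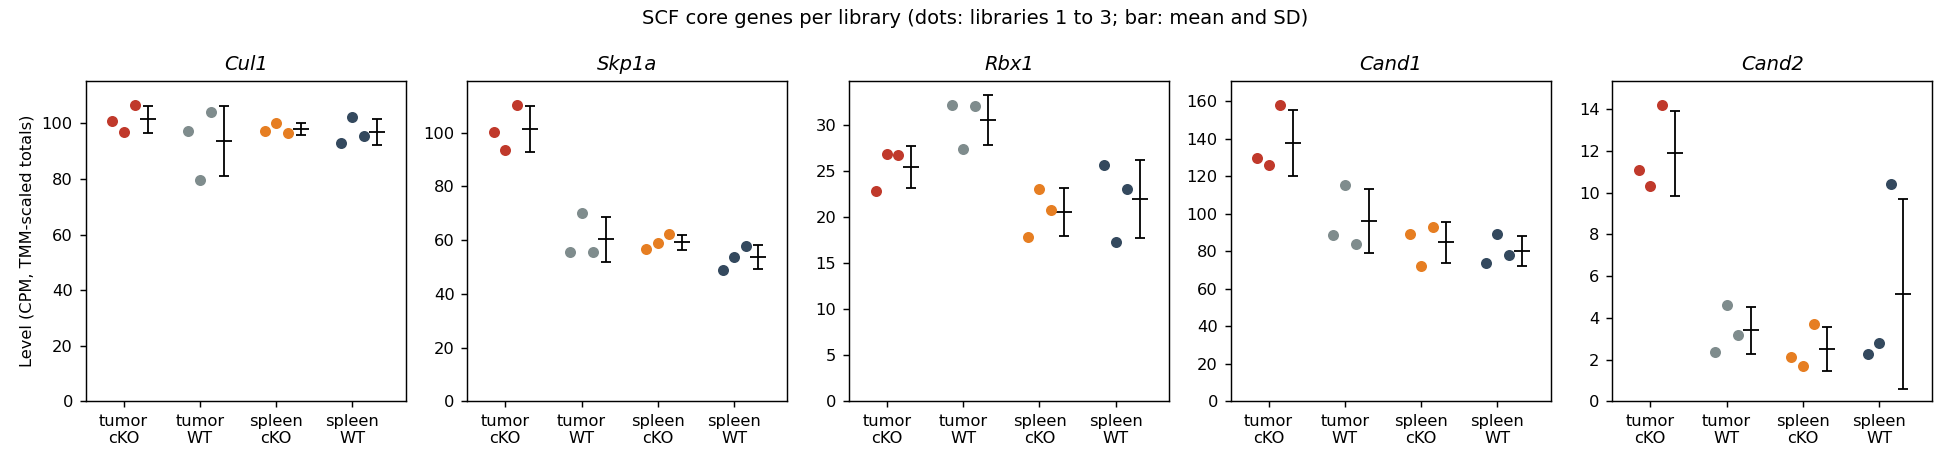
Levels of 5 SCF genes in CPM over scaled library totals, 1 panel a gene, with axes from 0. Dots are libraries 1 to 3 of each group, and the bar to their right is the mean and SD. The tumor cKO dots of Skp1a, Cand1 and Cand2 all lie above the tumor WT dots, where 50.3% of all genes were free of overlap. For Cand2, 1 spleen WT library stands high at 10.4 CPM.

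Cul1 (GRCm38 chromosome 6, 47453398 to 47526139), the scaffold, was called in none of the 5 comparisons. It stood at 101, 96.9 and 107 CPM in tumor cKO, against 97.5, 79.5 and 104 CPM in tumor WT. In spleen it stood at 97.3, 100 and 96.4 CPM in cKO, against 92.9, 102 and 95.6 CPM in WT. All groups overlapped on this scale, and the lowest value was that of tumor WT replicate 2. The test was edgeR's quasi-likelihood test with Benjamini-Hochberg adjustment over all genes. For cKO against WT in tumor the log2 fold change was 0.12 ± 0.11 (SE), with a 95% interval from −0.13 to 0.36 (adjusted p = 0.444). That interval allows a rise of up to 0.36, so the values are not shown to be alike. Without the composition factors that scale each library, the log2 value was 0.30 and passed (adjusted p = 0.0366), because the factors lay on opposite sides of 1 in tumor WT and tumor cKO. Over all genes tested the median log2 change in tumor was −0.117 with the factors and 0.056 without them, and 2761 genes were called higher and 3638 lower with them, against 3740 higher and 2767 lower without them. For cKO against WT in spleen, the log2 value was 0.02 ± 0.11 with an interval from −0.23 to 0.26 (adjusted p = 1).

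Skp1a (chromosome 11, 52231995 to 52246858), the adaptor that links CUL1 to F-box proteins, is not among the 4 genes but completes the complex and came from the wider list of adaptors. It stood at 100, 93.5 and 110 CPM in tumor cKO, against 55.5, 70.0 and 55.6 CPM in tumor WT. The groups did not overlap, as in 50.3% of all genes, and tumor WT replicate 2 lay nearest to cKO. The log2 fold change was 0.75 ± 0.13 (adjusted p = 0.000652), and it stayed called without each library in turn. In spleen Skp1a stood at 56.6, 58.9 and 62.2 CPM in cKO, against 49.1, 53.8 and 58.0 CPM in WT, and these groups overlapped (log2 0.14 ± 0.13, adjusted p = 1). The difference between the tissues in the cKO effect was 0.60 ± 0.18 (adjusted p = 0.0335), and it did not pass in 9 of the 12 fits that left out 1 library, with adjusted p up to 0.0805. The only near copy of Skp1a of 200 aligned bases or more with a row, Gm12988, held 8 counts in all libraries together.

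Rbx1 (chromosome 15, 81466316 to 81476369), the RING subunit, stood at 22.8, 26.8 and 26.8 CPM in tumor cKO, against 32.2, 27.4 and 32.1 CPM in tumor WT. The groups did not overlap, as was the case for 50.3% of all genes tested, and the change did not pass (log2 −0.26 ± 0.17, interval −0.63 to 0.11, adjusted p = 0.245). In spleen Rbx1 stood at 17.9, 23.1 and 20.7 CPM in cKO, against 25.6, 17.3 and 23.1 CPM in WT, with full overlap (log2 −0.10 ± 0.17, interval −0.48 to 0.28, adjusted p = 1). Between the tissues it was higher in tumor than in spleen among WT libraries (log2 0.47 ± 0.17, adjusted p = 0.0294). That call was lost without the composition factors (0.33, adjusted p = 0.119), in the fit of WT libraries alone (0.0617), and without spleen WT replicate 2 (0.140) or 3 (0.0507) or tumor WT replicate 1 (0.0775) or 3 (0.0650). Among cKO libraries Rbx1 did not pass (0.31 ± 0.17, adjusted p = 0.138), and the cKO effect was not shown to differ between tissues (−0.16 ± 0.24, adjusted p = 0.692). The transcript of a processed copy, Rbx1-ps, matches that of Rbx1 at 99.1% of 327 aligned bases and has no row in the table, so reads of this stretch are uncertain.

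Cand1 (chromosome 10, 119199255 to 119240055), the exchange factor, stood at 130, 126 and 158 CPM in tumor cKO, against 88.7, 116 and 84.1 CPM in tumor WT. Every tumor cKO library lay above every tumor WT library, with tumor WT replicate 2 nearest, where 50.3% of all genes were free of overlap. Cand1 rose by a log2 fold change of 0.52 ± 0.15 (adjusted p = 0.0164). The call was lost without tumor cKO replicate 3 (0.42, adjusted p = 0.0729), tumor WT replicate 1 (0.47, 0.0595) or tumor WT replicate 3 (0.45, 0.0606). Without tumor WT replicate 2 the value was 0.68 (adjusted p = 0.00164). In spleen Cand1 stood at 89.2, 72.2 and 92.7 CPM in cKO, against 73.5, 89.1 and 78.0 CPM in WT, and the groups overlapped (log2 0.08 ± 0.15, interval −0.25 to 0.41, adjusted p = 1). In cKO, tumor exceeded spleen by 0.70 ± 0.15 (adjusted p = 0.00145). In WT the value was 0.26 ± 0.15 (adjusted p = 0.151). The direct test of the difference between these effects gave 0.44 ± 0.21 (adjusted p = 0.170) and passed only without tumor WT replicate 2 (0.60, adjusted p = 0.0317).

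Cand2 (chromosome 6, 115774538 to 115805557), the paralog of Cand1, rested on few reads. It had 260, 172 and 367 counts in tumor cKO, 41, 164 and 53 in tumor WT, 29, 17 and 52 in spleen cKO, and 30, 37 and 110 in spleen WT. These correspond to 11.1, 10.3 and 14.2 CPM in tumor cKO, against 2.38, 4.63 and 3.19 CPM in tumor WT. The groups did not overlap, as in 50.3% of all genes. Cand2 rose by a log2 fold change of 1.79 ± 0.51 (adjusted p = 0.0143), which did not pass without tumor WT replicate 1 (1.60, adjusted p = 0.0533). In spleen it stood at 2.13, 1.70 and 3.69 CPM in cKO, against 2.28, 2.79 and 10.4 CPM in WT. Spleen WT replicate 3 alone stood high, and the log2 value of −1.01 ± 0.53 (adjusted p = 1) became 0.00014 without it. In cKO, tumor exceeded spleen by 2.23 ± 0.53 (adjusted p = 0.00274), and this held without each library in turn. In WT the value was −0.57 ± 0.51 (adjusted p = 0.346), or 0.43 without spleen WT replicate 3.

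The cKO effect on Cand2 was 2.80 ± 0.73 larger in tumor than in spleen on the log2 scale (adjusted p = 0.0199). Without spleen WT replicate 3 the difference was 1.80, still called, and it was not called without spleen cKO replicate 1 (2.69, adjusted p = 0.0520) or 2 (2.60, 0.0513). Cand2 shares 53 of its 5474 exonic bases with Rpl32, a ribosomal protein gene on the opposite strand with 101203 counts in all against 1332 of Cand2. Whether the counting used strand is unknown, so reads of this stretch cannot be assigned. Rpl32 stood at 574, 525 and 633 CPM in tumor cKO, against 527, 324 and 529 CPM in tumor WT, and did not pass (log2 0.33 ± 0.17, adjusted p = 0.135). In spleen Rpl32 stood at 427, 394 and 464 CPM in cKO, against 430, 458 and 505 CPM in WT. Between the tissues, Rpl32 was called higher in tumor than in spleen in cKO (log2 0.43) and was not called in WT (log2 −0.013). The part of reads of this shared stretch in the Cand2 values was not tested.

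**Figure D2:**
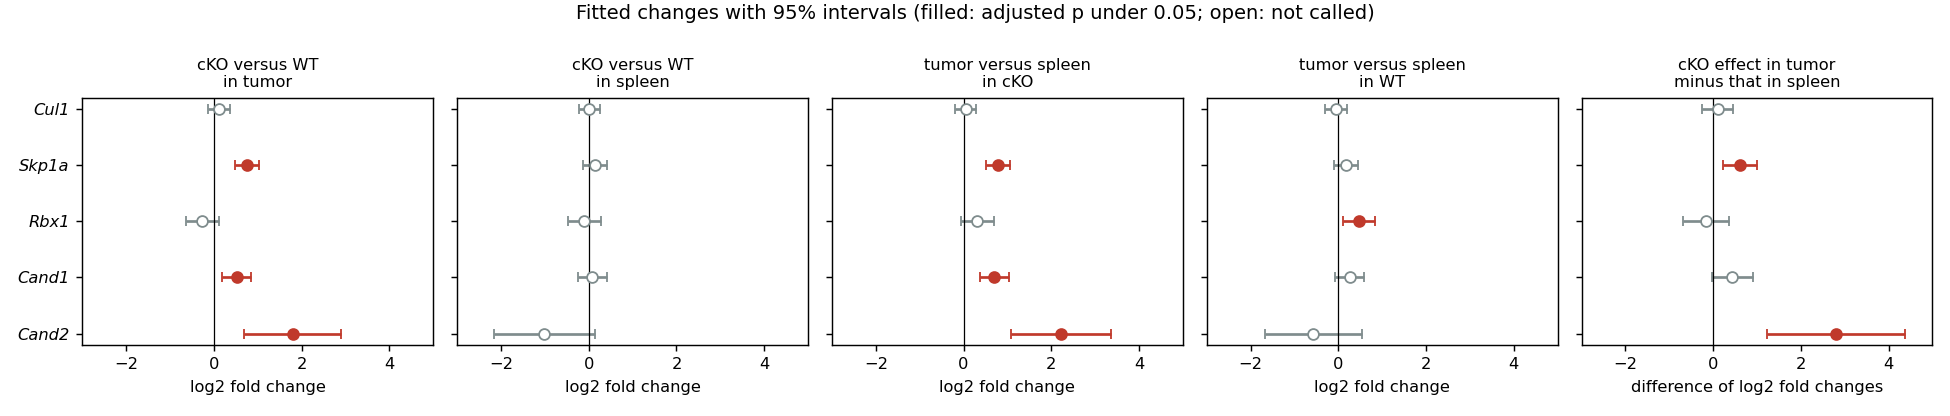
Fitted log2 fold changes of 5 SCF genes with 95% intervals, 1 panel a comparison, the last being the difference of the 2 cKO effects. Filled red points passed at an adjusted p under 0.05 and open grey points did not; no gene was called for cKO against WT in spleen, and the intervals of Cand2 are the widest in each panel.

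Set against the whole table, 2 of the 4 core genes were called in tumor cKO against WT, both higher, where 38% of all genes were called, 16.4% higher and 21.6% lower. In spleen 0 of 4 were called by edgeR and by DESeq2, and 0 had an unadjusted p under 0.05, where 0.0297% of all genes were called and 784 had such a p. For tumor against spleen, 2 of 4 were called in cKO, both higher, where 60.5% of all genes were called, 31.7% higher and 28.8% lower. In WT 1 of 4 was called, higher, where 62% of all genes were called, 33.9% higher and 28.1% lower. Rbx1 was also the only 1 of the 4 whose WT groups did not overlap between the tissues, as in 67.3% of all genes, whereas in cKO Cand1 and Cand2 were free of overlap, as in 70% of all genes. For the difference of the cKO effects 1 of 4 was called, higher, where 18.3% of all genes were called, 7.68% higher and 10.6% lower. The shares of genes called in the 2 tissue comparisons are so high that these counts single out nothing about the core.

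Markers that moved with genotype in tumor moved beside these changes. The 8 proliferation genes, among them Mki67 and Top2a, summed to 3420 to 4713 CPM in tumor cKO, against 983 to 1473 CPM in tumor WT, and 8 of 8 rose. They summed to 970 to 1147 CPM in spleen cKO, against 714 to 828 CPM in spleen WT. There 0 of 8 passed, where 0.0297% of all genes did, and 3 of 8 had an unadjusted edgeR p under 0.05. The 8 macrophage markers summed to 733 to 1969 CPM in tumor cKO, against 5110 to 12157 CPM in tumor WT, and 8 of 8 fell. In spleen their sums lay the other way, at 120 to 172 CPM in cKO and 37.8 to 67.8 CPM in WT. There 0 of 8 passed and 6 of 8 had an unadjusted edgeR p under 0.05. The 8 T cell markers summed to 509 to 694 CPM in tumor cKO, against 228 to 285 CPM in tumor WT, and 4 of 8 rose. In spleen they summed to 102 to 173 CPM in cKO, against 72.8 to 98.5 CPM in WT. There 0 of 8 passed and 6 of 8 had an unadjusted edgeR p under 0.05. Of the 8 NK cell markers, 7 fell in tumor cKO. In this tumor comparison 16.4% of all genes were called higher and 21.6% lower. The part of these shifts in the changes of Cand1, Cand2 and Skp1a was not tested, and in bulk samples a change in the cells present cannot be told apart from a change in RNA per cell.

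Ratios within a library do not depend on the scaling of its total. The RPKM ratio of Skp1a to Cul1 was 1.82, 1.76 and 1.89 in tumor cKO, against 1.04, 1.61 and 0.977 in tumor WT. The groups did not overlap, and the exact two-sided permutation p was 0.1, the smallest that 3 against 3 libraries allow. The ratio of Cand1 to Cul1 was 0.622, 0.628 and 0.716 in tumor cKO, against 0.440, 0.702 and 0.391 in tumor WT, with overlap through tumor WT replicate 2 (exact permutation p = 0.3). The ratio of Rbx1 to Cul1 was lower in each tumor cKO library, at 0.552, 0.675 and 0.613, than in the tumor WT libraries, at 0.807, 0.843 and 0.752 (exact permutation p = 0.1). The ratio of Cand2 to Cand1 was 0.131, 0.125 and 0.137 in tumor cKO, against 0.0410, 0.0611 and 0.0580 in tumor WT (exact permutation p = 0.1). None of the 16 such comparisons can pass at 0.05, since 3 against 3 libraries allow no p under 0.1. In spleen the ratios of cKO and WT gave exact permutation p from 0.3 to 0.7.

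**Figure D3:**
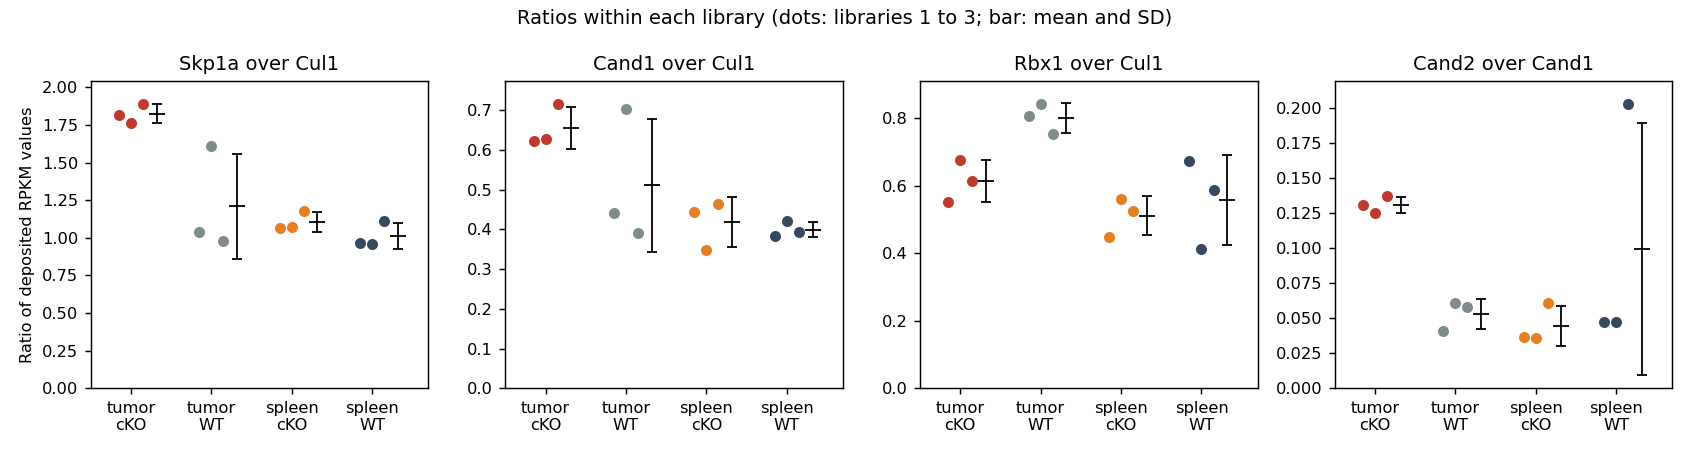
Ratios of deposited RPKM values of 2 genes within each library, 1 panel a ratio, with axes from 0. Dots are libraries 1 to 3, and the bar is the mean and SD; in tumor cKO the 3 values of Skp1a over Cul1 lie between 1.76 and 1.89, above all other libraries.

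The 3 closest followers of each core gene were taken from 9379 well-measured genes. They were ranked by Pearson's r of log2 CPM over the 12 libraries, which share their groups and totals. Those of Cul1 were Rfxap (r = 0.91), Prr3 (0.88) and Fam104a (0.87), and those of Rbx1 were Pcbd2 (0.94), Gpr137 (0.91) and Plp2 (0.91). Those of Cand1 were Prdx3 (0.99), Ccnh (0.98) and Ndufaf4 (0.98), and those of Cand2 were Dpp9 (0.95), Zdhhc21 (0.90) and Mrps11 (0.89). For Skp1a they were Spc24, Pole and Mcm7 (0.99 each). No follower was common to 2 of these genes. The top 3 of so many genes have a high r in part through their selection, so these values are a description without a test.

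The SCF scaffold is 1 of 8 cullins measured. Cul3, the scaffold that works with BTB-domain adaptors, had the highest RPKM in every group, at 46.4 in tumor cKO, 42.9 in tumor WT, 52.6 in spleen cKO and 51.5 in spleen WT on average, and Cul1 came next. Of the 7 cullins other than Cul1, 1 rose and 1 fell in tumor cKO, where 16.4% of all genes were called higher and 21.6% lower. Cul2, scaffold of the von Hippel-Lindau ligase, stood at 38.6, 37.5 and 46.9 CPM in tumor cKO, against 30.99, 24.96 and 25.98 CPM in tumor WT (log2 0.59 ± 0.16, adjusted p = 0.0132), a call lost without tumor cKO replicate 3 (0.48, adjusted p = 0.0643). Cul9, a large cullin that binds p53, stood at 5.59, 5.53 and 2.01 CPM in tumor cKO, against 16.4, 20.1 and 12.4 CPM in tumor WT (log2 −1.91 ± 0.33, adjusted p = 0.000773). Both pairs of groups were free of overlap, as in 50.3% of all genes. Cul9 did not pass in spleen (log2 −0.11 ± 0.32, adjusted p = 1), and the cKO effects differed between tissues by −1.80 ± 0.46 (adjusted p = 0.0170). Cul7, a scaffold that pairs with FBXW8, was higher in tumor than in spleen among WT libraries (log2 0.96 ± 0.32, adjusted p = 0.0188); this was led by tumor WT replicate 2, with 36.4 CPM against 15.7 and 17.6 in the other 2, and the value without that library was 0.48 (adjusted p = 0.106). The call was also lost without spleen WT replicate 3 (0.73, adjusted p = 0.0795).

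**Figure D4:**
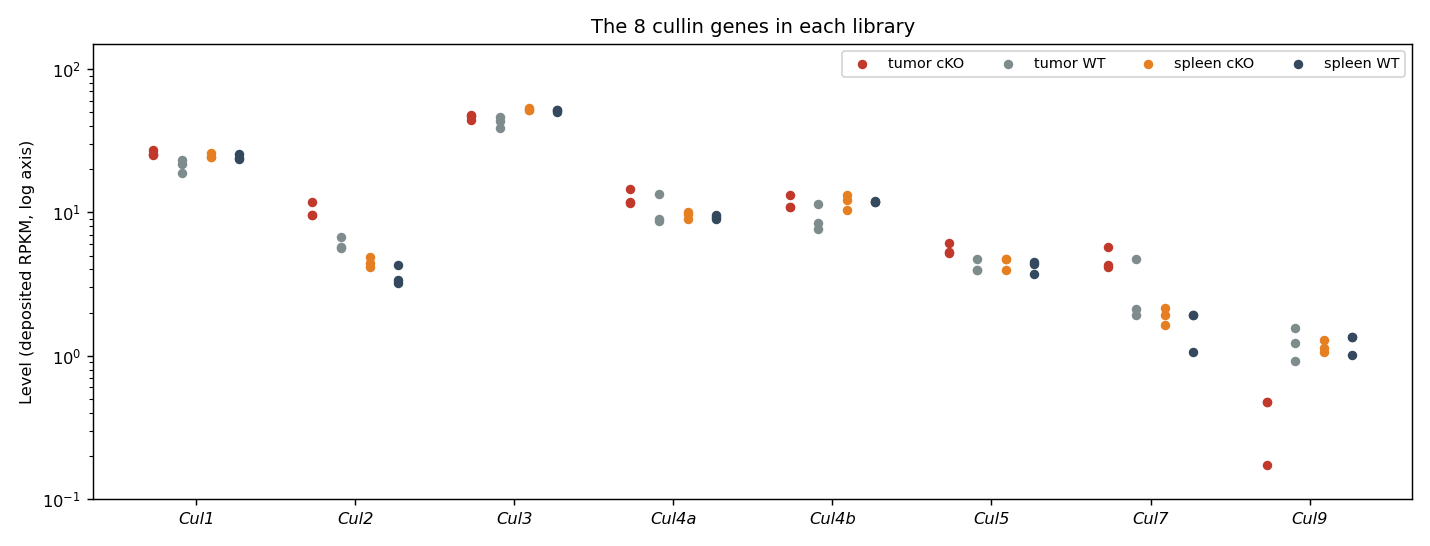
Deposited RPKM values of the 8 cullin genes on a log axis, with the 3 libraries of each group as dots in the order tumor cKO, tumor WT, spleen cKO and spleen WT. Cul3 and Cul1 are the top 2 in every group, and the tumor cKO dots of Cul9 lie below those of all other groups.

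The wider lists held 43 genes in 5 lists, all tested. In tumor cKO against WT 9 rose and 5 fell, which is 20.9% and 11.6% of the 43, where 16.4% of all genes were called higher and 21.6% lower. The median log2 change was 0.10 against −0.117 over all genes. Without the composition factors 14 were called higher and 4 lower, a setting in which more of all genes were also called higher than lower, 3740 against 2767. In spleen 0 of 43 were called by edgeR and by DESeq2, where edgeR called 0.0297% of all genes. None had an unadjusted edgeR p under 0.05, where 784 of the 16831 genes tested had such a p. So few genes were called in spleen that the absence of calls singles out nothing about these lists.

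Of the 5 adaptors and RING partners, 2 rose in tumor cKO, Skp1a and Ddb1, where 16.4% of all genes were called higher. Ddb1, adaptor of the CUL4 ligases, stood at 353, 338 and 426 CPM in tumor cKO, against 240, 344 and 253 CPM in tumor WT, with overlap through tumor WT replicate 2 (log2 0.42 ± 0.14, adjusted p = 0.0289). The Ddb1 call was lost in tumor libraries alone (adjusted p = 0.0911) and without tumor cKO replicate 3 (0.31, adjusted p = 0.122), tumor WT replicate 1 (0.32, 0.111) or tumor WT replicate 3 (0.37, 0.0884). The Elongin genes, listed under the symbols Tceb1 and Tceb2 and encoding the adaptor pair of CUL2 and CUL5, did not pass by genotype (log2 −0.12 ± 0.20, adjusted p = 0.679, and −0.22 ± 0.23, adjusted p = 0.473). In WT they were higher in tumor than in spleen, by 1.13 ± 0.21 (adjusted p = 0.000433) and 1.72 ± 0.25 (adjusted p = 4.94e-05). Rnf7, the RING paralog of Rbx1 that serves CUL5, stood at 11.998, 12.5 and 13.1 CPM in tumor cKO, against 16.0, 22.2 and 16.2 CPM in tumor WT, and did not pass (log2 −0.53 ± 0.23, adjusted p = 0.0842).

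Of the 10 genes of NEDD8 conjugation, 1 rose and 1 fell in tumor cKO, a smaller share than the 38% of all genes called. Nae1, a subunit of the enzyme that activates NEDD8, stood at 20.5, 24.9 and 29.7 CPM in tumor cKO, against 14.8, 15.1 and 12.1 CPM in tumor WT (log2 0.84 ± 0.17, adjusted p = 0.00217). Its spleen value was −0.20 ± 0.17 (adjusted p = 1), and the difference between the tissues was 1.03 ± 0.24 (adjusted p = 0.0120). Ube2f, the NEDD8-conjugating enzyme that works with RNF7, stood at 16.9, 16.2 and 14.2 CPM in tumor cKO, against 27.6, 25.9 and 25.8 CPM in tumor WT (log2 −0.75 ± 0.16, adjusted p = 0.00344). Neither gene's tumor groups overlapped, as in 50.3% of all genes. Nedd8 itself did not pass in tumor cKO (log2 0.28 ± 0.20, adjusted p = 0.289), and in WT it was higher in tumor than in spleen by 1.38 ± 0.20 (adjusted p = 6.94e-05).

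Of the 12 genes that remove NEDD8 or inhibit RBX1, 5 rose and 0 fell in tumor cKO, where 16.4% of all genes were called higher and 21.6% lower. They were the COP9 signalosome subunits Cops2, Cops3, Cops7a and Cops7b, and Glmn, whose product glomulin masks the RING of RBX1. Cops3 stood at 59.6, 54.8 and 71.0 CPM in tumor cKO, against 37.7, 40.4 and 30.9 CPM in tumor WT (log2 0.76 ± 0.15, adjusted p = 0.00143). Cops7b stood at 14.6, 16.5 and 20.3 CPM in tumor cKO, against 9.77, 11.1 and 6.87 CPM in tumor WT (log2 0.89 ± 0.22, adjusted p = 0.00741). Cops2 passed with a log2 value of 0.42 ± 0.12 (adjusted p = 0.0168). The groups of these 3 genes did not overlap, as in 50.3% of all genes. Cops5, the catalytic subunit, did not pass (log2 0.28 ± 0.18, adjusted p = 0.233), and Myeov2, the older symbol of the subunit Cops9, stood at −0.57 ± 0.22 (adjusted p = 0.0527). In WT, tumor exceeded spleen by 0.78 ± 0.13 for Cops2 (adjusted p = 0.000138) and by 1.24 ± 0.22 for Myeov2 (adjusted p = 0.000318). Cops3 shares 279 of 3454 exonic bases with the opposite-strand Gm16062, which held 3514 counts against 9274 of Cops3, and Glmn shares 667 of 2688 with Gm42669, at 1183 counts against 2052, so both are uncertain. Glmn also shares 276 bases with the opposite-strand Rpap2, at 3033 counts. Cops5 shares 182 of 3766 with the opposite-strand Cspp1, at 16751 counts against 9465, and is uncertain as well.

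Of the 9 ubiquitin-conjugating enzymes and ARIH ligases that work with cullins, 0 rose and 3 fell in tumor cKO, where 16.4% of all genes were called higher and 21.6% lower. Ube2d3, an E2 that starts ubiquitin chains on SCF substrates, stood at 223, 213 and 223 CPM in tumor cKO, against 336, 277 and 340 CPM in tumor WT (log2 −0.53 ± 0.10, adjusted p = 0.00128). Ube2d1, of the same family, stood at 4.995, 3.91 and 2.79 CPM in tumor cKO, against 7.56, 9.68 and 6.15 CPM in tumor WT (log2 −1.01 ± 0.24, adjusted p = 0.00514), a call lost in tumor libraries alone (−0.95, adjusted p = 0.0513). In both the groups did not overlap, as in 50.3% of all genes. Arih2, a ligase that joins CUL5 complexes, fell by 0.37 ± 0.14 on the log2 scale (adjusted p = 0.0482). Its tumor groups overlapped, at 154 to 198 CPM in cKO and 187 to 257 CPM in WT. In WT, tumor exceeded spleen by 1.05 ± 0.14 for Arih2 (adjusted p = 2.34e-05). Ube2l3, the E2 of the ARIH ligases, did not pass by genotype in tumor (log2 0.01 ± 0.17, adjusted p = 0.980) and in WT exceeded its spleen level in tumor by 1.35 ± 0.17 (adjusted p = 2.09e-05). Ube2l3 shares 1670 of 5599 exonic bases with the opposite-strand Ydjc, which held 13234 counts against 23708, and is uncertain.

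**Figure D5:**
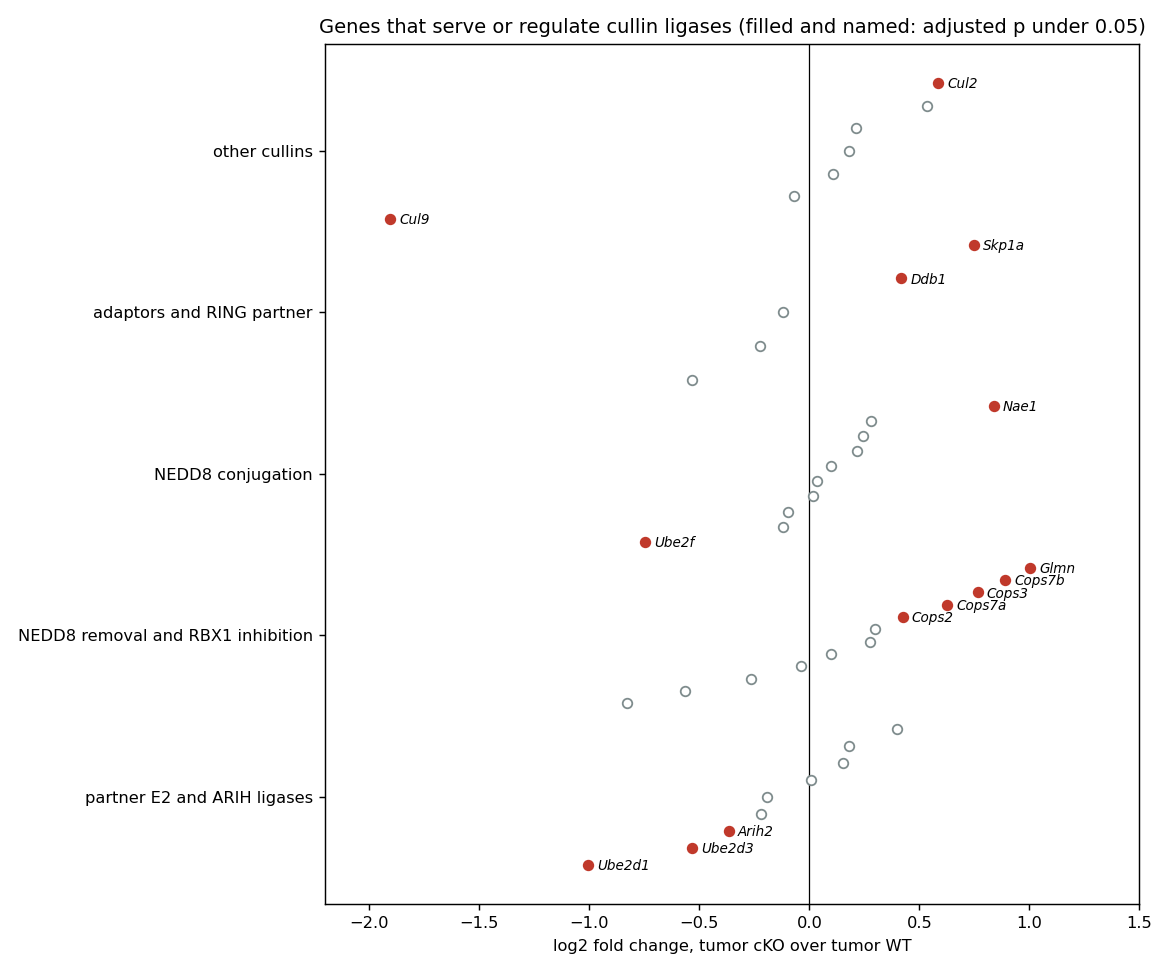
Log2 fold changes of the 43 genes of the 5 wider lists in tumor cKO over tumor WT, 1 row of dots a list, spread vertically by rank. Filled and named dots passed at an adjusted p under 0.05; 5 of 12 genes of NEDD8 removal and RBX1 inhibition lie filled to the right of 0, and 3 of 9 partner enzymes lie filled to the left.

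For tumor against spleen, 20 of the 43 wider-list genes rose and 4 fell in cKO, where 31.7% of all genes were called higher and 28.8% lower, with a median log2 change of 0.52 against 0.071 over all genes. In WT 19 rose and 5 fell, where 33.9% of all genes were called higher and 28.1% lower, with a median of 0.29 against 0.116 over all genes. The 2 comparisons share no library. For the difference of the cKO effects, 3 of 43 were called higher and 2 lower, where 7.68% of all genes were called higher and 10.6% lower. A further 3 genes from outside the ligase machinery were followed. Klf7, a Krüppel-like transcription factor, stood at 20.7, 24.1 and 22.8 CPM in tumor cKO, against 46.0, 56.4 and 49.5 CPM in tumor WT (log2 −1.17 ± 0.19, adjusted p = 0.000475). Klf7 shares 3196 of 8131 exonic bases with the opposite-strand Gm26649, at 2243 counts against 5923, and is uncertain. Pdcd1, the inhibitory receptor PD-1, stood at 132, 150 and 186 CPM in tumor cKO, against 59.0, 52.5 and 56.0 CPM in tumor WT (log2 1.49 ± 0.53, adjusted p = 0.0490), a call lost in 9 of 12 fits that left out 1 library, with adjusted p up to 0.136. The groups did not overlap, as in 50.3% of all genes. Over all edgeR, DESeq2 and limma settings the log2 value ran from 1.35 to 1.67. Its adjusted p ran from 5.2e-14 to 0.36, so the call depends on the fit. The zinc finger gene Zxdb did not pass in tumor (log2 −0.05 ± 0.23, adjusted p = 0.901).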

How the data were processed

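RNA of 12 samples was sequenced, and the reads were mapped to mm10 (GRCm38) with TopHat2 2.0.6, per the submitters' processing notes. How reads were counted, and whether by strand, is unknown here. The authors deposited whole-number counts per gene, not normalized, and RPKM values. The RPKM values equalled counts per kilobase and per 1000000 counted reads within a relative tolerance of 0.001 in 100% of nonzero values. Between 68.8% and 73.3% of counts from 1 to 49 were even, so counts may hold both mates of a pair, and counting error may be larger than they imply. No 2 columns were identical.

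Counts were tested with edgeR 4.0.16 in R 4.3.3 (filterByExpr, 16831 genes, TMM factors, robust quasi-likelihood, 1 mean per group, 12 libraries). Tests were two-sided, with Benjamini-Hochberg adjustment over all genes and calls under 0.05; all adjusted p-values are edgeR's unless named otherwise. CPM use TMM-scaled totals. The same steps were tested on simulated data in which few genes changed, in both directions. That test does not bear on the composition factors here, where many genes differed between groups. Alternatives were DESeq2 1.42.0, limma 3.58.1 on RPKM (pseudocounts 0.1 and 1), no composition factors, no filter, 6 libraries alone, the replicate number as a block, and each library left out.

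The knocked-out gene is not reported here, and no check of genotype was made through its level. The members and lists were chosen with earlier results of these data known; Rpl32 was added for its overlap with Cand2. Named from each list were the 2 genes of smallest p in tumor cKO against WT and the 2 in tumor against spleen in WT; Glmn, Cops7a, Cops5, Rnf7, Cul3 and Zxdb were named after their values were seen. Followers had the highest Pearson's r among genes whose mean log2 CPM was 2 or more (prior count 2), without predicted models and pseudogenes. Positions are those of the deposited table; 47 listed genes overlapped their GENCODE vM21 entries.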

Additional observations from a re-analysis of the deposited data

Results flagged for a closer look

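The cKO effect, as a log2 fold change, differed between tumor and spleen for 7 of the genes described, by the test of the difference itself over all 12 libraries, which called 18.3% of all genes. Cand2 differed by 2.80 ± 0.73 (edgeR adjusted p = 0.0199). It was not called without spleen cKO replicate 1 (adjusted p = 0.0520) or 2 (0.0513), and was 1.80 without spleen WT replicate 3, whose Cand2 level stood high. Skp1a differed by 0.60 ± 0.18 (adjusted p = 0.0335), Nae1 by 1.03 ± 0.24 (adjusted p = 0.0120) and Cops3 by 0.64 ± 0.21 (adjusted p = 0.0491). Cul9 differed by −1.80 ± 0.46 (adjusted p = 0.0170), Ube2d3 by −0.59 ± 0.14 (adjusted p = 0.0139) and Klf7 by −1.18 ± 0.27 (adjusted p = 0.0108). The Ube2d3 difference was not called without a filter on low counts (−0.57, adjusted p = 0.0872) or with limma on RPKM (−0.42 and −0.38, adjusted p = 0.0599 and 0.0537 at pseudocounts 0.1 and 1). The 3 tumor cKO and 3 tumor WT libraries of each of the 7 did not overlap, as in 50.3% of all genes. The difference was not called in 9 of 12 fits that left out 1 library for Skp1a and for Cops3. The values for Cul9, Klf7, Nae1 and Ube2d3 stayed called in all 12 such fits, with adjusted p up to 0.0450 for Ube2d3.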

How the results depend on the processing

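Directions and calls of the 4 core genes were recomputed under each alternative. Cul1, cKO against WT in tumor, passed without composition factors (0.30, adjusted p = 0.0366) and with limma on RPKM (0.30 at pseudocount 0.1 and 0.29 at 1). Rbx1, tumor against spleen in WT, did not pass without composition factors (0.33), without a filter (0.53, adjusted p = 0.0537), in WT libraries alone (0.47) or with limma on RPKM (0.34 and 0.32). Cul1 reversed sign in tumor against spleen in WT without a filter, at 0.0078, against −0.05. The composition factors lie below 1 in tumor WT and above 1 in tumor cKO, so leaving them out raises the log2 values of cKO over WT in tumor. The RPKM values do not hold these factors either, so limma on RPKM is no separate check of that scaling. The cause of the other changes was not tested.

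Leaving out each library in turn, Cul1 ran from −0.013 to 0.057 for cKO against WT in spleen, from −0.11 to 0.069 for tumor against spleen in WT, and from −0.0029 to 0.20 for the difference of the cKO effects. Rbx1 ran from −0.24 to 0.028 in spleen and from 0.32 to 0.59 for tumor against spleen in WT. Cand1 ran from 0.42 to 0.68 in tumor and from 0.34 to 0.60 for the difference. Cand2 ran from −1.41 to 0.00014 in spleen, from 1.60 to 2.09 in tumor, from −0.93 to 0.43 for tumor against spleen in WT, and from 1.80 to 3.21 for the difference. With limma on RPKM at pseudocount 1, which by construction shrinks changes of low genes, Cand2 was 1.05 in tumor, 1.15 for tumor against spleen in cKO and 1.39 for the difference, all still called, and in tumor Cul9 was −0.70, Ube2d1 −0.45 and Ube2f −0.39.

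Of the 43 wider-list genes, the number called higher for the difference of the cKO effects was 3, and 7 without composition factors, 1 without a filter, 6 with DESeq2 and 8 with limma on RPKM at either pseudocount, and 1 to 7 without each library. The number called lower there was 2, and 1 without a filter or with limma on RPKM at either pseudocount. In tumor, 9 were called higher, and 14 without composition factors; 5 were called lower, and 3 in tumor libraries alone. For tumor against spleen in WT, 5 were called lower, and 8 without composition factors or with limma on RPKM at pseudocount 0.1.

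With the replicate block, Cand1 in tumor was 0.52 (adjusted p = 0.0275), Cand2 in tumor 1.76 (0.00879), Rbx1 in tumor against spleen in WT 0.48 (0.0446) and the Cand2 difference 2.63 (0.0171); the block changed no call of the core genes. Same-numbered libraries had residual correlations from −0.088 to 0.111, over 0.1 in 1 of 18 pairs, so the numbers were not taken as pairs. Cand2 rested on 17 to 367 counts a library, the fewest of the 4 core genes.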
